A study of Mus musculus with 18 samples.

Results

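The ionotropic and metabotropic glutamate receptors and the GABA receptors of the brain are built from a limited set of subunits, and 38 genes of this set were found in the count table of RNA from brain cell fractions of *Atxn2*-CAG100-knockin mice. The genes were chosen by symbol: the AMPA (*Gria*), kainate (*Grik*) and NMDA (*Grin*) receptor subunits, the metabotropic glutamate receptors *Grm2* to *Grm8*, the GABA-A receptor subunits of the alpha, beta, gamma and delta families, and both GABA-B subunits. They are 38 of 35823 gene names in the table, and 27 of them had at least 5 reads in at least 2 of the 18 libraries, as had 13552 genes in all.

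Glutamate opens the AMPA, kainate and NMDA channels, which carry fast excitation, and acts more slowly through the metabotropic receptors, which couple to G proteins. GABA opens the chloride channels of the GABA-A type and signals through G proteins at the GABA-B type. Most of these receptors are best known from synapses of neurons, but astrocytes and microglia also carry some of them, and a channel works only when the subunits it needs are present together.

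The mice were 10 months old, on a C57BL/6 background, and untreated. KIN animals were homozygous for an *Atxn2* allele in which a single glutamine codon was replaced by a long CAG repeat, a model of spinocerebellar ataxia type 2, and WT littermates of the same sex carried no such repeat. Microglia were taken from the dissociated brain with CD11b beads, astrocytes with ACSA-2 beads, and neurons last, by removal of non-neuronal and CD31-labelled cells, so that all 3 fractions came from a single brain in sequence. There were 3 libraries, labelled as biological replicates, for each fraction and genotype. A total of 2 WT and KIN pairs were male and 1 was female, but the labels do not link these to replicate numbers. The p-values below rest on the spread between replicate libraries, 3 a group, but not on that of the tested gene alone. The edgeR test draws the spread of a gene towards that of other genes and pools it over the groups of a fit. In fits of several fractions, these groups include libraries from the same brains.

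The glial libraries held 2118317 to 3296398 reads and the neuronal ones 761481 to 2017932, and the 10 most abundant transcripts took between 76.0% and 85.7% of the reads in a library. The 38 subunits had 110 to 893 reads in a glial library and 70 to 156 in a neuronal library, so counting error is large for most of them. *Atxn2* itself, the gene that carries the repeat, was measured in CPM, its reads relative to the TMM-scaled size of the library, and had 9.22 ± 1.74 CPM (SD, n = 3) in KIN astrocytes against 10.9 ± 0.496 CPM in WT astrocytes, and a count of its reads does not show the repeat.

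The labels of the fractions were compared with marker genes. The sum of 8 microglial markers was 714 to 1092 CPM in WT and 960 to 1006 CPM in KIN microglia, and the highest library of the other fractions was at 15.4 CPM. The sum of 8 astrocytic markers was 649 to 963 CPM in WT astrocytes and 366 to 395 CPM in KIN astrocytes, against at most 34.9 CPM elsewhere. In the neuronal fraction the 8 neuronal markers summed to 89.0 to 165 CPM. *Tubb3*, a neuronal tubulin, was 7.48-fold higher and *Stmn2*, a regulator of growing neurites, 4.87-fold higher there than in astrocytes. *Snap25* and *Syt1*, which encode proteins of transmitter release, were 2.46-fold and 5.81-fold lower in the neuronal fraction than in astrocytes (adjusted p = 0.0116 and 0.000348, edgeR). Neuronal WT replicate 2 also held *Mbp*, a myelin gene, at 218 CPM. The neuronal fraction thus stood out by *Tubb3* and *Stmn2* but not by these synaptic markers.

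Summed over the 38 subunits, the level in WT astrocytes was 298, 264 and 280 CPM in replicates 1 to 3, and in KIN astrocytes it was 154, 149 and 135 CPM. Every KIN library thus lay below every WT library of astrocytes. In microglia the sums were 107, 54.6 and 103 CPM in WT and 52.8, 58.9 and 60.0 CPM in KIN, and WT replicate 2 lay among the KIN libraries. In the neuronal fraction the sums were 102, 102 and 94.4 CPM in WT and 102, 72.2 and 86.4 CPM in KIN, and the groups overlapped. The neuronal markers, all 8 of them detected in every group, were compared beside these sums: they amounted to 107, 36.7 and 92.2 CPM in WT and 36.9, 34.8 and 55.6 CPM in KIN astrocytes. In microglia they amounted to 50.8, 16.9 and 31.9 CPM in WT and 8.74, 9.69 and 7.37 CPM in KIN. In astrocytes as in microglia, WT replicate 2 was thus the lowest WT library of its fraction in both sums. Astrocyte WT replicate 2 lay within the KIN range in the neuronal markers and above all KIN libraries in the receptors, at 264 CPM. Microglia WT replicate 2 lay above the KIN libraries in the neuronal markers and among them in the receptors. The part of neuronal RNA in the differences below was not tested beyond the values given for these libraries, and in such bulk samples fewer cells of a type and less RNA per cell cannot be told apart.

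**Figure D1:**
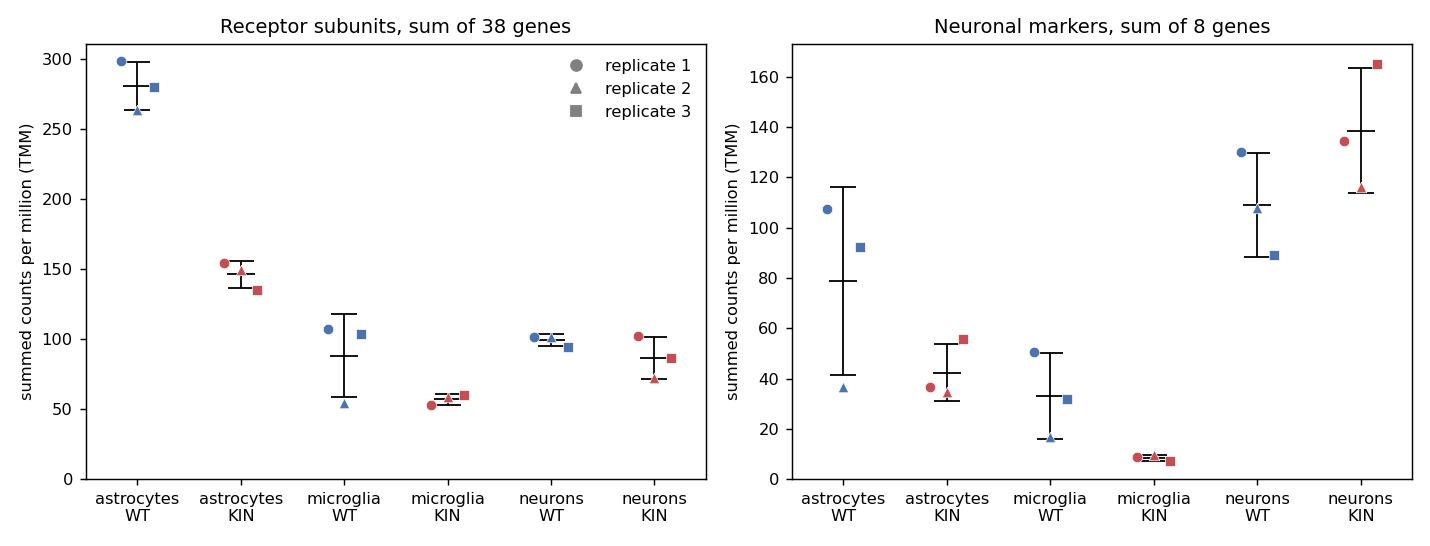
Summed level of the 38 receptor subunit genes (left) and of 8 neuronal marker genes (right) in TMM-scaled CPM, by fraction and genotype. Symbols are libraries by replicate number, bars are the mean ± SD of 3 libraries, and the KIN astrocytes lie at 135 to 154 CPM on the left against 264 to 298 CPM in WT.

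The first question was how the receptor genes differed between KIN and WT astrocytes. Of the 38 subunits, 25 passed the filter on these 6 libraries. A total of 8 were called lower in KIN and 0 higher, where a call needs both an adjusted p no larger than 0.05 and a log2 fold change of 1 or more in either direction. Over all 11751 genes tested, 8.84% were called, 6.42% lower and 2.43% higher. The median log2 fold change was -0.95 over the 25 subunits tested and -0.00 over all genes. Of the 25 tested, 12 had all KIN libraries below all WT libraries and 0 had them above, against 14.1% and 13.8% of all genes tested. Among the 13 that were not tested, another 3 had all KIN libraries lower. The remaining 17 of the 25 were not called, and *Grik4*, at 0.31 ± 0.32 (SE), was the single subunit with a value above 0.

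Among the NMDA receptor subunits, *Grin2c* had the smallest adjusted p. It encodes GluN2C, a glutamate-binding subunit known from cerebellar granule cells and from astrocytes. It had 93, 110 and 97 reads in the WT and 33, 18 and 30 reads in the KIN libraries, at 33.0 ± 2.68 against 10.1 ± 1.25 CPM (SD, n = 3). No KIN library came near the WT range, and the log2 fold change was -1.72 ± 0.24 (SE; adjusted p = 1.37e-06, edgeR). *Grin2b*, which encodes GluN2B, a subunit prominent in the young forebrain, had 56, 22 and 47 reads in WT and 23, 5 and 10 in KIN. Scaled to library size, the groups did not overlap, and it fell by 1.58 ± 0.33 on the log2 scale (adjusted p = 0.0006). *Grin2a*, which encodes the GluN2A subunit of mature synapses, had 19, 10 and 36 reads in WT and 1, 8 and 7 in KIN. Its groups overlapped, and its log2 fold change was -1.80 ± 0.45 (adjusted p = 0.00484). This call was lost without WT replicate 3, without KIN replicate 1, with DESeq2 and with the transcript of highest mean.

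The other NMDA subunits were not called in astrocytes. *Grin1*, the subunit that every NMDA receptor needs, had 107, 122 and 96 reads in WT and 76, 57 and 29 in KIN. Its groups did not overlap, and its log2 fold change of -0.82 ± 0.24 had an adjusted p of 0.0151 but was short of the fold criterion. It was called without KIN replicate 2. *Grin2d* had 19 WT and 4 KIN reads in all (log2 fold change -1.99 ± 0.81, adjusted p = 0.0981), and the glycine-binding subunit *Grin3a* was at -0.55 ± 0.45. *Grin3b* had at most 3 reads in an astrocyte library and was not tested.

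Of the AMPA receptor subunits, *Gria1* and *Gria2* were called lower and *Gria3* and *Gria4* were not. *Gria1* encodes GluA1, which is carried into synapses during plasticity, and had 46, 63 and 46 reads in WT and 30, 8 and 19 in KIN. *Gria2* encodes GluA2, the subunit that keeps calcium out of the channel, and had 56, 48 and 30 reads in WT and 25, 11 and 13 in KIN. For neither gene did the scaled values overlap, and both fell by 1.30 on the log2 scale, with SEs of 0.27 and 0.29 and adjusted p-values of 0.000625 and 0.00141. Both calls were lost with the transcript of highest mean (adjusted p = 0.116 and 0.0529). *Gria3* was at -0.94 ± 0.44 (adjusted p = 0.163) and *Gria4*, a subunit of fast AMPA receptors, at -0.20 ± 0.30 (adjusted p = 0.747). *Gria4* had 70 WT and 54 KIN reads, with overlapping libraries.

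Of the 4 kainate receptor subunits tested in astrocytes, 0 were called and 0 had an unadjusted p under 0.05, with edgeR as with DESeq2. *Grik5*, which encodes the high-affinity subunit GluK5, had 37, 41 and 60 reads in WT and 46, 15 and 30 in KIN (log2 fold change -0.46 ± 0.25, adjusted p = 0.265). *Grik4*, which encodes the related GluK4, had 29, 11 and 16 reads in WT and 25, 16 and 21 in KIN. *Grik2* and *Grik3*, which encode channel-forming subunits, were at -0.45 ± 0.39 and -1.45 ± 0.81.

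Of the metabotropic glutamate receptors, *Grm5* and *Grm4* were called lower. *Grm5* encodes mGluR5, which couples to phospholipase C and is known from neurons and young astrocytes. It had 10, 7 and 17 reads in WT and 0, 1 and 1 in KIN, a ratio of rates of 15.0 with an exact 95% interval of 3.85 to 129 that covers counting error only. The libraries did not overlap (adjusted p = 0.000405, edgeR), and DESeq2, which called 6 of the 8 subunits, gave *Grm5* no adjusted p. *Grm4*, which encodes a receptor of granule cell terminals that inhibits adenylyl cyclase, had 30, 5 and 28 reads in WT and 2, 6 and 3 in KIN. WT replicate 2 lay within the KIN range, and the log2 fold change was -2.30 ± 0.50 (adjusted p = 0.00109). With the transcript of highest mean *Grm4* was not called. *Grm3*, which encodes mGluR3, a receptor common on astrocytes, had 17, 47 and 23 reads in WT and 17, 14 and 13 in KIN (-0.80 ± 0.32, adjusted p = 0.0997). *Grm7*, a low-affinity presynaptic receptor, was at -0.95 ± 0.58 and was not called. *Grm2* had 2, 1 and 6 reads in WT and 0 in each KIN library, which puts it at least 2.65-fold lower in KIN, against a floor of 3 reads over the group.

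Of the GABA-B receptor subunits, *Gabbr2* was called and *Gabbr1* was not. *Gabbr2*, which couples the receptor to its G protein, had 40, 34 and 53 reads in WT and 12, 10 and 7 in KIN, at 13.9 ± 2.79 against 3.75 ± 1.24 CPM. It fell by 1.94 ± 0.31 on the log2 scale with no overlap (adjusted p = 1.87e-05). *Gabbr1*, which binds GABA, had 99, 113 and 130 reads in WT and 106, 37 and 65 in KIN, at 37.5 ± 2.97 against 24.8 ± 5.80 CPM. Its scaled values did not overlap either, and its log2 fold change was -0.59 ± 0.22 (adjusted p = 0.0653). Whether the change of *Gabbr2* exceeds that of its partner was not tested.

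Of the 5 GABA-A receptor subunits tested in astrocytes, 0 were called with edgeR or DESeq2. *Gabra2*, an alpha subunit, had 23, 23 and 31 reads in WT and 15, 9 and 15 in KIN, without overlap of the scaled values (-0.81 ± 0.31, unadjusted p = 0.0119, adjusted p = 0.0795, edgeR). It was the single GABA-A subunit with an unadjusted p under 0.05 in edgeR, and DESeq2 gave 0. *Gabrb1*, a beta subunit found in astrocytes, had 23, 52 and 26 reads in WT and 26, 19 and 26 in KIN (-0.33 ± 0.29). *Gabrg1*, a gamma subunit known from glia, had 14, 18 and 7 reads in WT and 15, 7 and 7 in KIN (-0.27 ± 0.39). The libraries of both genes overlapped. *Gabra4* was at -1.24 ± 0.63. The 13 subunits that failed the filter in astrocytes had at most 9 reads in a library, and together 100 reads in WT and 37 in KIN.

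**Figure D2:**
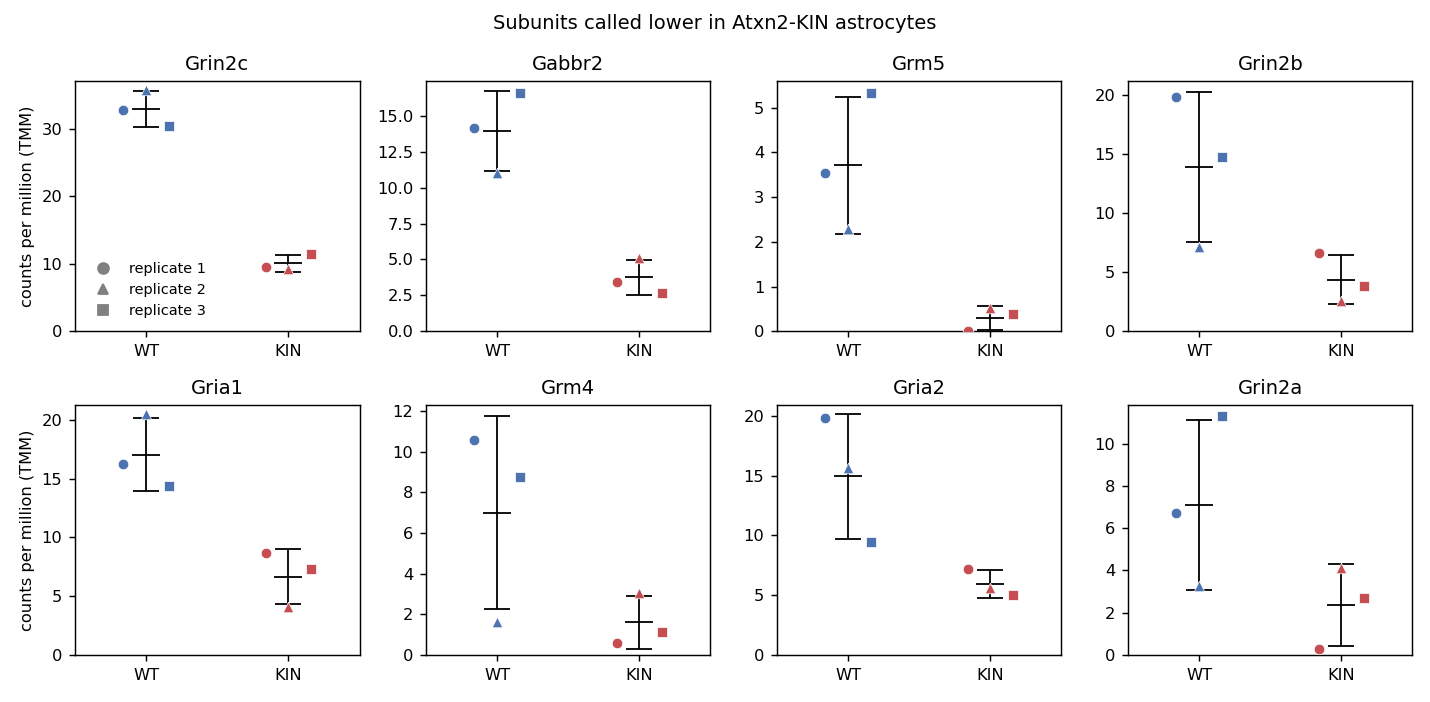
Level in TMM-scaled CPM of the 8 subunits called lower in KIN astrocytes, in order of their p-value. Symbols are the 3 WT (blue) and 3 KIN (red) libraries and bars the mean ± SD; the libraries of *Grm4* and *Grin2a* overlap and those of the other 6 do not.

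Since astrocyte WT replicate 2 had a neuronal marker sum within the range of the KIN libraries, the KIN libraries were also set against this WT library alone. The library was chosen after seeing the data and has no spread of its own, so the values are a description and no calls are read from them. The log2 difference was -1.83 for *Grin2c*, -1.55 for *Gria1*, -1.37 for *Gria2*, -1.61 for *Gabbr2*, -1.48 for *Grm3* and -2.98 for *Grm5*. It was smaller in size for *Grin2a* (-0.68), *Grin2b* (-0.62) and *Grm4* (-0.23). For *Grik4* (1.09), *Grik2* (0.60) and *Gria4* (0.19) it was above 0. Against the mean of the other WT libraries, WT replicate 2 was at 113% for *Grin2c*, 134% for *Gria1*, 231% for *Grm3* and 208% for *Gabrb1*, but at 16.8% for *Grm4*, 36.1% for *Grin2a* and 41.4% for *Grin2b*. It was also the highest WT library in the astrocyte markers, at 963 CPM against 652 and 649 CPM, and in the oligodendrocyte markers, at 692 CPM against 437 and 457 CPM, so it was not matched to the KIN libraries in its glial markers. The neuronal markers *Snap25*, *Syt1*, *Rbfox3*, *Nefl* and *Stmn2*, 5 of the 8, were called lower in KIN astrocytes, as were the astrocytic markers *Gja1*, *Slc1a2* and *Fgfr3*, 3 of 8, whereas the oligodendrocytic *Mog* and *Cnp* were called higher, 2 of 7. The markers of cerebellar granule cells *Cbln1* and *Zic1* were called lower, 2 of the 5 tested of 7, and their sum was 41.0, 16.9 and 37.3 CPM in WT and 25.9, 11.3 and 18.0 CPM in KIN astrocytes, with WT replicate 2 the lowest WT library. The sum of the oligodendrocyte markers was 437 to 692 CPM in WT and 786 to 805 CPM in KIN astrocytes, and that of the astrocyte markers was 649 to 963 against 366 to 395 CPM. Without overlap, the sum of the oligodendrocyte precursor markers was 32.0 to 45.2 CPM in WT and 54.4 to 61.4 CPM in KIN, with *Sox10* called higher, 1 of 6 tested, and that of the ependymal markers was 22.6 to 25.4 against 40.0 to 47.6 CPM. The part of these shifts in the receptor values was not tested.

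The region before the start of the gene was read for the members in the RefSeq promoter table (GRCm38.p6), which held 26 of the 38. The sequences of *Grin2c*, *Gabbr2* and *Gria2* are shown because these 3 are the subunits called in astrocytes that the table held. Each is the 250 bases before the start, 5′ to 3′ on the coding strand, and all 3 genes lie on the minus strand: *Grin2c* at chr11:115267244-115267493, *Gabbr2* at chr4:46991715-46991964 and *Gria2* at chr3:80802836-80803085. Capitals mark GGGCGG, the core of the GC box, or its reverse complement CCGCCC.
Grin2c: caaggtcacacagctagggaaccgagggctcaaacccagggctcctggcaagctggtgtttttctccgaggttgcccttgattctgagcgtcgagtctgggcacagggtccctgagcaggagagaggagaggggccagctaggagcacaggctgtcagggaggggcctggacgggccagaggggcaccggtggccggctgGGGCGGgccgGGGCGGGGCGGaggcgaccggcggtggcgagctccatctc
Gabbr2: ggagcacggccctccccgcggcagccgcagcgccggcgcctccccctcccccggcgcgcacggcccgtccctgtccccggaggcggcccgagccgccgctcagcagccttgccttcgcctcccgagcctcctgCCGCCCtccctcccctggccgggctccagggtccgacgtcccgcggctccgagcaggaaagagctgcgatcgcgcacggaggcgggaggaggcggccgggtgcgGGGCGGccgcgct
Gria2: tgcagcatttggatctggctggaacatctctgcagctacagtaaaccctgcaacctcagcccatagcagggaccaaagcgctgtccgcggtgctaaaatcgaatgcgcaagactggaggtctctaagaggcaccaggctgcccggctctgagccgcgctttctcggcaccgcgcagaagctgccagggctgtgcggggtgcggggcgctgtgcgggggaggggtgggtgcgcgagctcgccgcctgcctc
There were 3 matches for *Grin2c*, a pair of them sharing a base, 2 for *Gabbr2* and 0 for *Gria2*. At least 1 match was found in 14 of the 26 members' windows, and in 32.9% of the 27025 windows of the table. A match is a string of letters in this window and was not linked to any measurement.

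The reads of *Grin1* were uneven over its transcripts. Of the 619 reads of the gene in the 18 libraries, 403 or 65.1% were assigned to transcript ENSMUST00000153465, for which the annotation defines no coding sequence. It has 2 exons on the minus strand of chr2:25193493-25195112 (GRCm39), of 63 and 571 bases, and 342 of its 634 bases are not coding in any *Grin1* transcript, so that it runs on from an exon into intron sequence. The last 300 bases of this transcript, chr2:25193493-25193792, are shown because the reads come from the 3′ ends of RNA. Capitals mark the 55 bases that are coding in other transcripts.
Grin1 ENSMUST00000153465: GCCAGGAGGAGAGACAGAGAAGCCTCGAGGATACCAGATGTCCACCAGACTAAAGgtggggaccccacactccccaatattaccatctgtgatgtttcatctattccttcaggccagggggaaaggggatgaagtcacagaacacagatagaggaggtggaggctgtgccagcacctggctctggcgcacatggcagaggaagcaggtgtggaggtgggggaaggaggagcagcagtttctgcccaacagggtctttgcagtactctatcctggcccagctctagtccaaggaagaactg
Exons of the gene overlap those of *Lrrc26* and *Grin1os* on the other strand, and the counting did not use strand. Whether ENSMUST00000153465 itself lies in such an overlap was not checked.

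Split in this way, which was chosen after seeing the data, the parts of *Grin1* gave different values in astrocytes. ENSMUST00000153465 had 58, 110 and 45 reads in WT and 65, 52 and 24 in KIN, with overlap, at a log2 fold change of -0.41 ± 0.27 (adjusted p = 0.366, edgeR). The other transcripts together had 49, 12 and 51 reads in WT and 11, 5 and 5 in KIN, at -2.24 ± 0.39 (adjusted p = 6.84e-05). WT replicate 2 was the highest library for the former and the lowest WT library for the latter. In the neuronal fraction the order was the other way: ENSMUST00000153465 had 6, 20 and 4 reads in WT and 3, 4 and 0 in KIN (-2.85 ± 0.69, adjusted p = 0.126), and the others 5, 5 and 0 against 6, 4 and 8 (-0.02 ± 0.70).

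**Figure D3:**
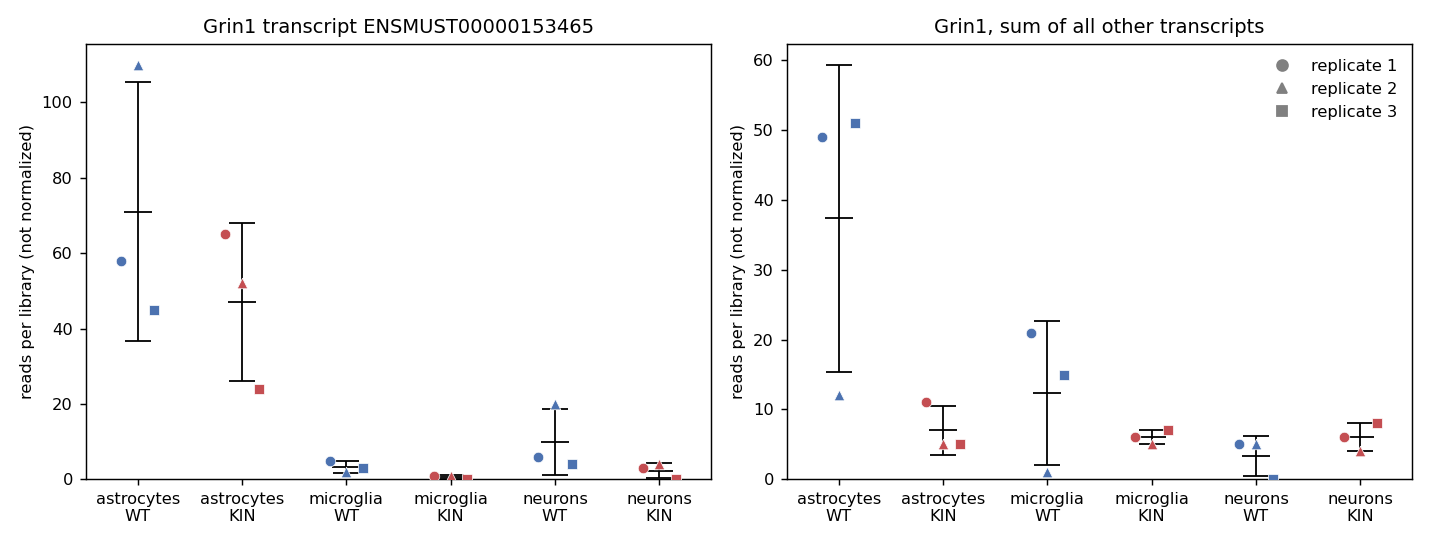
Reads per library, not normalized, of the *Grin1* transcript ENSMUST00000153465 (left) and of all other *Grin1* transcripts together (right) by fraction and genotype. Symbols are libraries by replicate number and bars the mean ± SD; the right panel holds 49, 12 and 51 reads in WT and 11, 5 and 5 in KIN astrocytes.

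In microglia, 18 of the 38 subunits were tested. A single one, *Grin2b*, was called lower and 0 were called higher, against 1.52% of 10831 genes called in this fraction, 0.785% lower and 0.739% higher. By the adjusted p alone 1.62% of the genes passed, and KIN libraries lay below all WT libraries for 7.55% of the genes and above them for 8.46%, against 2 and 0 of the 18 subunits. *Grin2b* had 30, 10 and 18 reads in WT and 3, 5 and 7 in KIN, at 7.19 ± 2.04 against 1.81 ± 0.63 CPM, without overlap of the scaled values. It fell by 1.98 ± 0.40 on the log2 scale (adjusted p = 0.0096), and the call was lost without WT replicate 1, KIN replicate 1 or KIN replicate 2. DESeq2 gave none of the 18 subunits an adjusted p in this fraction. The median over the 18 tested was -0.75, and it was -0.01 over all genes. *Grin2c* had 7, 5 and 10 reads in WT and 1, 1 and 3 in KIN, also without overlap (-2.15 ± 0.69, adjusted p = 0.121).

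The microglial values depended on the WT libraries. *Gabbr2* had 23, 3 and 13 reads in WT and 2, 4 and 6 in KIN (-1.71 ± 0.51, adjusted p = 0.0901), and *Grin1* had 26, 3 and 18 against 7, 6 and 7 (-1.26 ± 0.45, adjusted p = 0.188). *Gria1* had 9, 0 and 9 reads in WT and 0, 1 and 3 in KIN, and *Gabbr1* had 51, 10 and 26 against 21, 20 and 11. For these 4 genes WT replicate 2 was within or below the range of the KIN libraries. They were called lower when it was left out, which follows from its low values and is no further evidence of a difference. The neuronal marker sum was 16.9 CPM in this library, and 3 of the 8 neuronal markers, *Snap25*, *Syt1* and *Nefl*, were called lower in KIN microglia. The astrocytic *Aldoc* and *Slc1a2*, 2 of the 4 tested, and the endothelial *Cldn5*, 1 of 3, were called lower as well. The sum of the astrocyte markers was 23.3 to 34.9 CPM in WT and 15.9 to 18.3 CPM in KIN microglia, and that of the oligodendrocyte markers was 30.8 CPM or more in the WT libraries against 18.6 to 19.0 CPM. The part of these shifts in the microglial receptor values was not tested.

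Other subunits had overlapping libraries in WT and KIN microglia. *Gabra2* had 31, 19 and 16 reads in WT and 20, 28 and 23 in KIN (log2 fold change 0.03 ± 0.28), *Grik4* had 11, 13 and 11 against 8, 14 and 18 (0.09 ± 0.37), and *Gria3* had 12, 4 and 12 against 15, 12 and 12 (0.40 ± 0.39). *Grin2a* had 29, 12 and 16 reads in WT and 11, 18 and 20 in KIN (-0.28 ± 0.31). The kainate subunits *Grik3* and *Grik5*, with 16 and 22 WT reads in all, were at -1.42 ± 0.80 and -1.02 ± 0.58. The 20 subunits not tested had at most 9 reads in a microglial library. Among them *Grin2d* and *Grm7* had all KIN libraries lower and *Grm6* had them all higher.

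In the neuronal fraction 11 subunits passed the filter and 0 were called (edgeR, 1 with an unadjusted p under 0.05, and 0 with DESeq2), against 5 calls or 0.0739% of the 6765 genes tested. Of the 11 tested, 0 had libraries without overlap in either direction, against 2.22% of the genes with all KIN libraries lower and 11.5% with all higher. By edgeR this single subunit was *Grin1*, with 11, 25 and 4 reads in WT and 9, 8 and 8 in KIN (-1.51 ± 0.46, adjusted p = 0.498). *Gabbr1* had 12, 8 and 16 reads in WT and 19, 6 and 14 in KIN (-0.83 ± 0.44). *Gabra2*, with 5, 2 and 4 against 19, 11 and 8 reads, was at 0.87 ± 0.56, and *Grik5*, with 10, 8 and 1 against 24, 11 and 18 reads, was at 0.59 ± 0.47. The libraries of these genes overlapped after scaling to library size. *Gria2* (-0.66 ± 0.55), *Grin2b* (-0.37 ± 0.64), *Gabrg1* (-0.47 ± 1.04) and *Grik2* (-0.32 ± 0.72) had the next p-values. Of the 27 subunits not tested, *Gria3* had all KIN libraries lower and *Grin2a* had them all higher. *Gabra5*, *Grm3* and *Grm7*, also not tested, had 0 reads in all 6 neuronal libraries. A total of 3 reads over the group would stand for 0.432 CPM, so lower levels were not detectable at this depth.

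**Figure D4:**
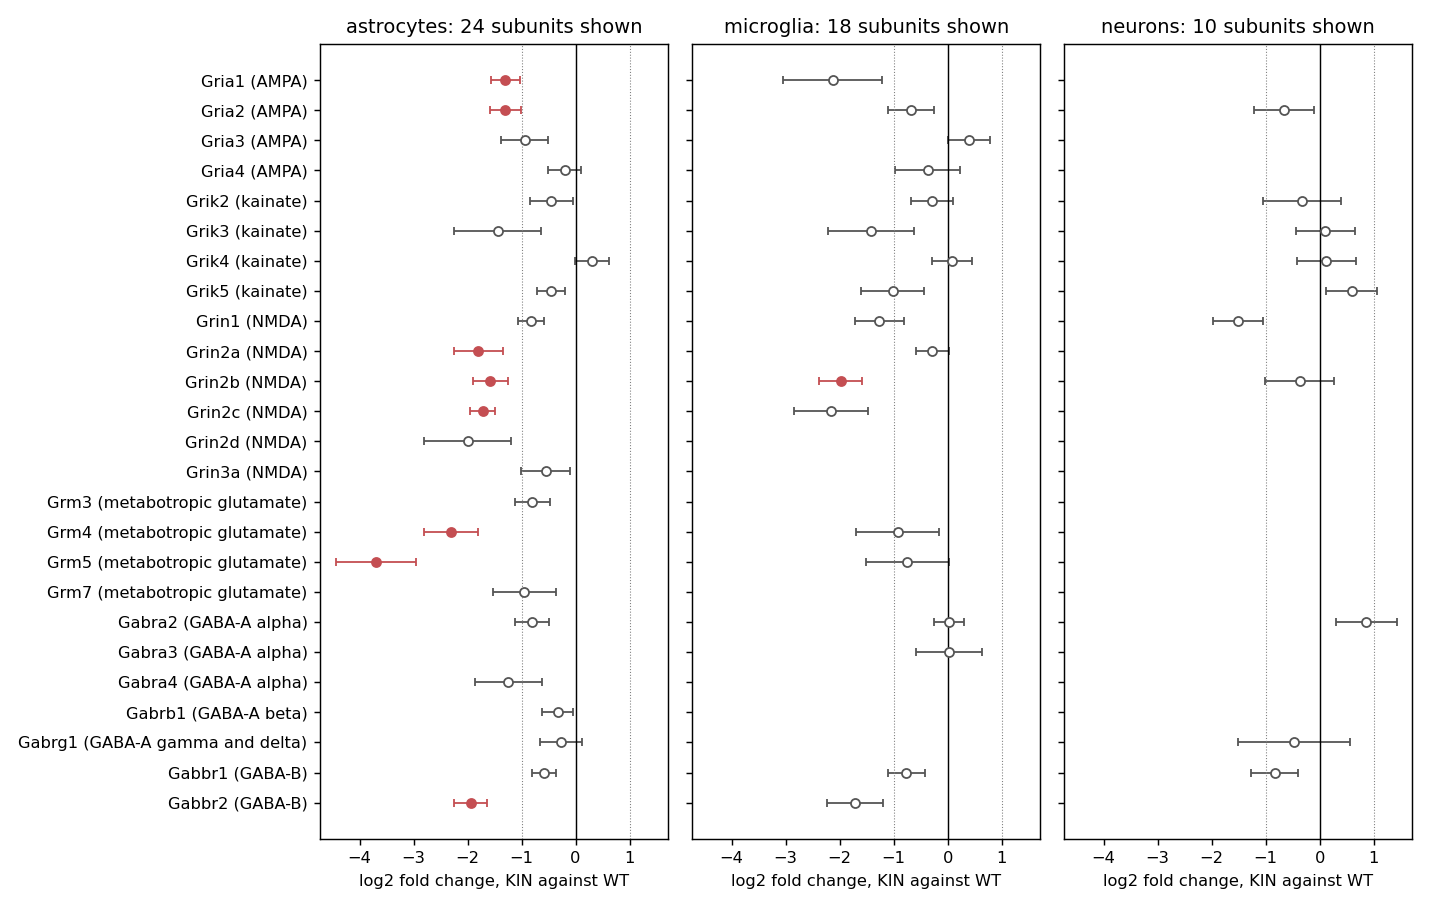
Log2 fold change of KIN against WT (± SE, edgeR) in astrocytes, microglia and the neuronal fraction for 25 subunits that passed the filter over 18 libraries, ordered by receptor class; filled red points are called and dotted lines mark a log2 fold change of 1 either way. The numbers shown are 24, 18 and 10, and 23, 14 and 6 of these lie below 0.

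When all 18 libraries were fitted together with the fraction as a covariate, 8 of 27 subunits tested were called lower in KIN and 0 higher, against 2.07% of 13552 genes called, 1.56% lower. This fit holds the same libraries as the fits above, and the 3 fractions of a brain are not independent. The called subunits included *Grin2c* (-1.75 ± 0.26), *Gabbr2* (-1.73 ± 0.30), *Grin2b* (-1.41 ± 0.27), *Grin1* (-1.02 ± 0.23), *Gria1* (-1.34 ± 0.32), *Grm4* (-1.76 ± 0.45) and *Grm5* (-1.75 ± 0.47). The adjusted p-values of these ran from 3.86e-06 for *Grin2c* to 0.0183 for *Grm5*. The calls of *Gria1* and *Grm4* were lost with the transcript of highest mean. Those of *Grin1*, *Grm4* and *Grm5* were lost in 5, 4 and 4 of the 18 fits that left out a library, that of *Grm4* without astrocyte WT replicate 1 or 3 or astrocyte KIN replicate 1 or 3, and *Grm4* also with DESeq2. *Grin1* lost its call without astrocyte KIN replicate 3, microglia WT replicate 1 or 3, neuronal WT replicate 2 or neuronal KIN replicate 3, and *Grm5* without astrocyte WT replicate 3, astrocyte KIN replicate 1 or 3, or microglia WT replicate 3. *Gria2*, at -0.96 ± 0.24 (adjusted p = 0.0106), missed the fold criterion, and 3.39% of all genes passed by the adjusted p alone.

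The difference between the KIN effects in microglia and in astrocytes was tested as an interaction. For 0 of 27 subunits was it called (edgeR, 3 with an unadjusted p under 0.05, and 0 of the 8 given an adjusted p by DESeq2), against 1.14% of 13277 genes. By edgeR the 3 were *Grin2a* (1.51 ± 0.59, adjusted p = 0.206), *Grm5* (2.94 ± 1.14, adjusted p = 0.21) and *Gria3* (1.34 ± 0.59, adjusted p = 0.3). A positive value stands for a KIN to WT ratio that is higher in microglia. *Grin2a* had 65 WT and 16 KIN reads in astrocytes and 57 and 49 in microglia, but this difference of differences did not pass the adjustment. For *Grin2c* (-0.42 ± 0.62), *Gabbr2* (0.22 ± 0.69), *Grin2b* (-0.41 ± 0.56) and *Gria1* (-0.84 ± 0.80) the SEs were larger than or close to the differences.

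The levels were then compared between the fractions, with the genotype as a covariate. Each gene was compared with itself between fractions, and no levels were compared between genes. In astrocytes 16 of the 27 subunits were higher than in microglia and 0 lower, against 32.4% of 13552 genes called, 18.1% higher and 14.3% lower. Markers of other cells were called higher there too: 7 of 7 oligodendrocytic, 5 of 8 neuronal and 4 of 4 ependymal markers. Of those tested, so were 4 of 6 oligodendrocyte precursor and 3 of 4 pericyte markers, but 0 of 5 granule cell markers. The part of such cells in the differences between fractions was not tested. *Grin2c* was at 9.21 to 35.8 CPM in the astrocyte libraries and 0.359 to 4.26 CPM in microglia, without overlap (log2 difference 3.61 ± 0.29, adjusted p = 9.33e-18). Also without overlap were *Grin1* (2.77 ± 0.27), *Gabrb1* (3.44 ± 0.39), *Gria1* (3.08 ± 0.35), *Grik5* (2.64 ± 0.31), *Grm3* (3.46 ± 0.41), *Gabbr1* (1.87 ± 0.23), *Gria4* (2.06 ± 0.32), *Gabrg1* (3.42 ± 0.56) and *Gria2* (1.65 ± 0.28), with adjusted p-values from 5.11e-14 for *Grin1* to 7.95e-07 for *Gria2*. The libraries of *Gabbr2* (1.43 ± 0.31), *Grin2b* (1.01 ± 0.29), *Grin3a* (1.71 ± 0.50), *Gabra4* (2.23 ± 0.66), *Grm4* (1.42 ± 0.46) and *Grm7* (1.60 ± 0.57) overlapped, and these were called at adjusted p-values of 9.52e-05 to 0.0203. With the transcript of highest mean, *Gabrg1* was at 0.92 (adjusted p = 0.386) and *Gria2* at 0.61 (adjusted p = 0.294), and neither was called. The call of *Grin2b* was lost in 10 of 26 alternatives, that of *Grm4* in 4 of 25, among them those without astrocyte WT replicate 1 or 3, that of *Grm7* without microglia WT replicate 1 and with WT libraries only, and that of *Grin3a* with WT libraries only. Both parts of *Grin1* were higher in astrocytes, ENSMUST00000153465 by 4.73 ± 0.41 and the other transcripts by 1.04 ± 0.36.

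A total of 11 subunits tested were not called between the glial fractions. The mean of *Grin2a* over the 6 libraries was 4.72 ± 3.83 CPM (SD) in astrocytes against 6.55 ± 1.40 CPM in microglia (-0.57 ± 0.32, adjusted p = 0.152). *Gabra2* was at 6.67 ± 2.13 and 8.59 ± 1.19 CPM (-0.36 ± 0.25, adjusted p = 0.27), and *Gabra3*, an alpha subunit of immature receptors, at 0.766 ± 0.551 and 1.80 ± 0.791 CPM (-1.21 ± 0.52, adjusted p = 0.0562). *Gria3*, *Grik2*, *Grik3* and *Grik4* were at -0.47 ± 0.33, 0.06 ± 0.32, -0.19 ± 0.51 and 0.55 ± 0.28. The libraries of these genes overlapped between the fractions.

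In the neuronal fraction 2 of the 27 subunits were called higher than in astrocytes and 11 lower, against 29.1% of 13552 genes called, 11.3% higher and 17.8% lower. The median log2 difference was -0.75 over the subunits and -0.21 over all genes. *Grik3*, a kainate subunit, was higher in the neuronal fraction at 3.08 to 8.67 CPM against 0.288 to 2.47 CPM, without overlap (2.35 ± 0.46, adjusted p = 2.57e-05, edgeR), and was not called with WT libraries only (adjusted p = 0.0681). *Gabra3* was higher by 1.54 ± 0.60 (adjusted p = 0.0385) from 16 reads against 13, and its call was lost in 10 of 25 alternatives.

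The subunits that were lower in the neuronal fraction included several with hardly any reads there. *Grm3* had 131 reads in the 6 astrocyte libraries and 0 in the 6 neuronal ones, which is at least 17.7-fold lower against a floor of 3 reads over the group. *Grm7* had 32 and 0 reads, which is at least 4.33-fold lower. *Grin2c* had 381 reads in astrocytes and 2 in the neuronal fraction, a ratio of rates of 77.3 (exact 95% interval 21.2 to 640, for counting error only), *Gria1* 212 and 2 reads, a ratio of 43.0 (11.8 to 357), and *Gabrb1* 172 and 2 reads, a ratio of 34.9 (9.51 to 290). *Grm4* had 74 and 3 reads, a ratio of 10.0 (3.29 to 49.6). *Gabbr2* (-2.83 ± 0.49), *Grin2a* (-1.53 ± 0.53), *Grin1* (-1.51 ± 0.27) and *Gabbr1* (-1.46 ± 0.25) were also called lower, as was *Gria4*, at a 5.28-fold lower level. The call of *Grin2a* was lost without astrocyte WT replicate 3, without neuronal WT replicate 1 and with the transcript of highest mean. For *Grin1* this held for ENSMUST00000153465 (-1.90 ± 0.34) and not for the other transcripts (-0.65 ± 0.42, adjusted p = 0.241).

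Set against microglia, the neuronal fraction had 4 subunits at a called higher level and 3 at a lower one, with 26.7% of all genes called, 10.7% higher and 16.1% lower. *Grik3* (2.16 ± 0.45, adjusted p = 8.94e-05) was higher without overlap, and *Grik5* (2.30 ± 0.36, adjusted p = 3.26e-07), *Gabrg1* (2.69 ± 0.72) and *Grin1* (1.26 ± 0.34) were higher with overlap of libraries. All 16 neuronal reads of *Gabrg1* were assigned to ENSMUST00000200126, a retained-intron transcript, and its call was lost with WT libraries only (adjusted p = 0.106), as were those of *Grik3* (0.14) and *Grik5* (0.0699). Neuronal WT replicate 2 held 25 of the 40 *Grin1* reads of neuronal WT, and without it the call of *Grin1* was lost. Against microglia, ENSMUST00000153465 was higher by 2.82 ± 0.56 and the other *Grin1* transcripts were at 0.39 ± 0.47 (adjusted p = 0.576). *Grin2a* was lower in the neuronal fraction, with 10 reads against 106 in microglia (-2.10 ± 0.50, adjusted p = 0.00053) and no overlap. *Grin2c* had 2 against 27 reads, a ratio of 5.91 (1.49 to 51.3), and its call was lost in 5 of 26 alternatives: without microglia WT replicate 3, neuronal WT replicate 1 or 2 or neuronal KIN replicate 3, and with WT libraries only. *Grm3*, with 0 against 10 reads and at least 1.46-fold lower, lost its call in 15 of 25 alternatives. *Gria2*, at 0.89 ± 0.35 (adjusted p = 0.0456), missed the fold criterion and met it without neuronal WT replicate 3.

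Put in order, the astrocyte fraction had the highest mean level of *Grin2c*, *Gria1*, *Gabrb1*, *Grm3*, *Gria4* and *Gabbr2*, each called against both other fractions. For *Gabrb1*, *Gria1*, *Gria4* and *Gabbr2* the microglial and neuronal levels did not differ by the test. *Grik5* was highest in astrocytes at 12.9 ± 3.59 CPM (SD, n = 6) and next in the neuronal fraction at 9.44 ± 4.76 CPM, neighbours that did not differ by the test (adjusted p = 0.366), with microglia at 1.94 ± 1.29 CPM. *Grik2* was at 4.21 ± 1.83, 3.90 ± 1.16 and 4.19 ± 2.92 CPM in astrocytes, microglia and neurons. *Grik4* was at 3.58 to 10.2 CPM in astrocytes (median 7.63), 3.18 to 6.45 CPM in microglia (4.85) and 3.25 to 9.17 CPM in neurons (5.47). Neither gene differed by the test between any pair of fractions.

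**Figure D5:**
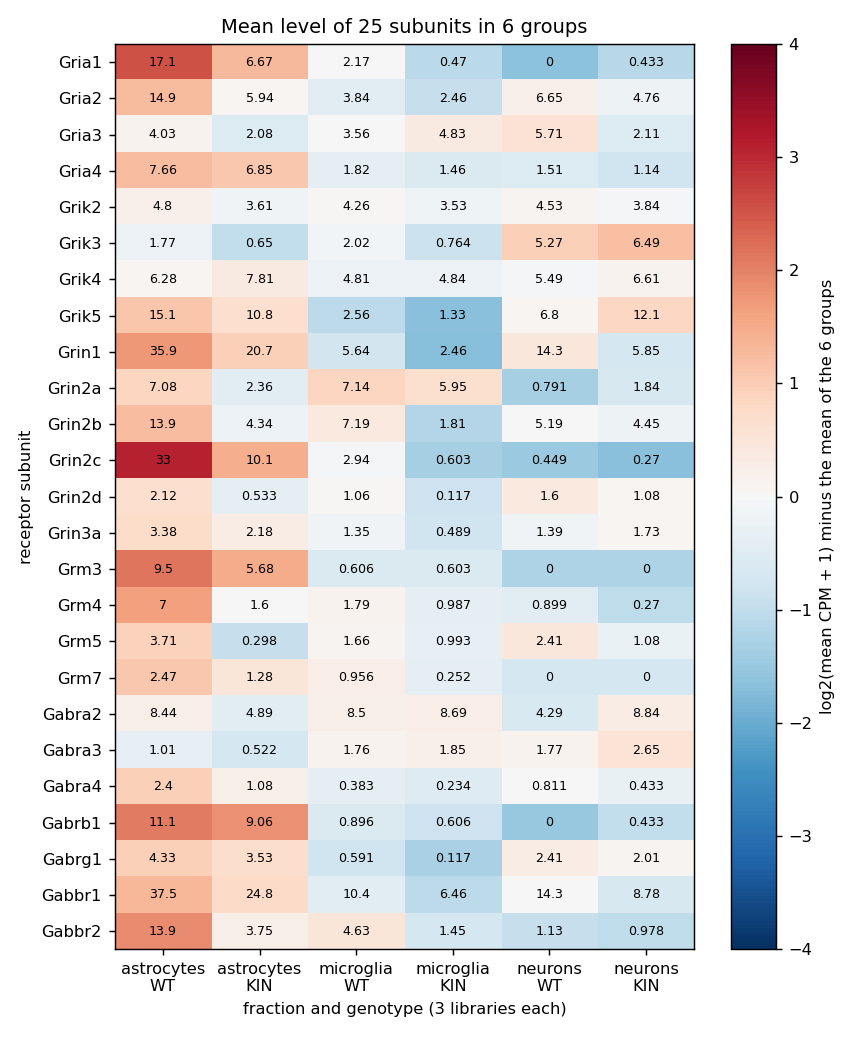
Mean CPM of 3 libraries (numbers) for 25 subunits in the 6 groups of fraction and genotype, coloured by log2(mean CPM + 1) minus the mean of the 6 groups for that gene (red above, blue below). *Grin2c* reads 33.0 in WT and 10.1 in KIN astrocytes, and 0.603 or 2.94 in microglia.

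The 11 subunits that failed the filter over 18 libraries included *Gabra5*, *Gabra6*, *Gabrb2*, *Gabrd*, *Gabrg3*, *Grik1*, *Grin3b*, *Grm2*, *Grm6* and *Grm8*. Their totals over the 18 libraries ran from 8 reads for *Gabra5* and *Gabra6* to 30 for *Gabrb2*. *Gabra6* and *Gabrd* encode the subunits of cerebellar granule cells, and *Grm6* the receptor of retinal bipolar cells. These genes were not tested.

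Genes that act with the receptors were described from lists, and their counts stand beside 6.42% of all genes called lower and 2.43% called higher in KIN astrocytes. DESeq2 called 9 of the 44 genes of the 5 lists below to which it gave an adjusted p in astrocytes. Of the 22 scaffold and anchoring proteins of glutamate receptors, 20 were tested in astrocytes, 5 were lower in KIN and 0 higher, with a median log2 fold change of -0.70. These were *Shank1* (-1.81 ± 0.31) and *Shank3* (-1.65 ± 0.32), scaffolds of the postsynaptic density, *Dlgap3* (-2.44 ± 0.53), which links them to other scaffolds, and the pentraxins *Nptx1* (-3.14 ± 0.53) and *Nptxr* (5.27-fold lower), which cluster AMPA receptors. Their adjusted p-values ran from 3.15e-05 to 0.00113. Of 16 auxiliary subunits, 12 were tested. *Cacng2* (stargazin; -3.42 ± 0.78, adjusted p = 0.0019), *Shisa7* (-2.30 ± 0.66) and *Shisa9* (-1.33 ± 0.46) were lower and *Cacng5*, another AMPA receptor auxiliary protein, was higher, at 1.25 to 2.12 CPM in WT and 4.09 to 5.37 CPM in KIN (1.39 ± 0.43, adjusted p = 0.0246). Of 13 scaffold and auxiliary proteins of GABA receptors, 10 were tested, and 2 were lower, among them *Iqsec3* (-3.95 ± 0.75).

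Of 7 genes of transmitter synthesis and vesicle loading, 6 were tested in astrocytes. *Slc17a7*, the vesicular glutamate transporter VGLUT1, fell by 2.94 ± 0.47 on the log2 scale, and *Gad1* (-1.70 ± 0.55) and *Gad2* (-1.80 ± 0.56), which make GABA, were lower too. Of 8 genes of uptake and recycling, all were tested and 3 were lower. These were *Slc1a2*, the main astrocytic glutamate transporter (-1.34 ± 0.22), *Slc6a11*, an astrocytic GABA transporter (-1.50 ± 0.22), and *Glul*, glutamine synthetase (-1.15 ± 0.22). *Slc6a11* was at 125 to 166 CPM in WT and 43.0 to 59.8 CPM in KIN, without overlap. Thus both genes of neuronal transmitter handling and genes of astrocytic uptake were among those called. In KIN microglia *Dlgap3*, *Shank3*, *Olfm1*, *Nlgn2*, *Slc17a7* and *Slc1a2* of these lists were called lower, 6 of the 46 tested, against 0.785% of all genes. DESeq2 called 0 of the 6 to which it gave an adjusted p there. In the neuronal fraction 0 of the 40 genes tested from these 5 lists were called (edgeR, 2 with an unadjusted p under 0.05, and 0 with DESeq2). Of 8 receptor subunits outside the rule, such as the delta receptor *Grid1*, 2 were tested in astrocytes and 0 were called.

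Members also share features of annotation. Protein-coding transcripts took 69.5% of the subunit reads over the 203 transcripts of the 38 genes, retained introns 8.50%, and transcripts with no defined coding sequence 11.7%. The exons of *Gabra4* and *Gabrb1* overlap on opposite strands, as do those of *Grik5* and *Zfp574*, *Grin3b* and *Tmem259*, and *Gabrb1* and *Commd8*. Reads from such overlaps cannot be assigned without strand, and the values of these genes are uncertain to that extent. The exons of *Grin2b*, called in both glial fractions, also overlap those of the protein-coding gene *Gm65988*, on the same strand. Reads there could not be assigned by strand either, so the values of *Grin2b* are uncertain too. *Grin2c*, *Gria1*, *Gabbr2* and *Grm5* have no exonic overlap with another protein-coding gene.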

How the data were processed

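RNA of the 3 cell fractions was sequenced as MACE-seq with added polyadenylation, which reads the 3′ ends of RNA and carries unique molecular identifiers. By the submitters' processing notes and the study's methods, the authors trimmed reads with Cutadapt 4.6, removed duplicates by identifier, mapped with Bowtie2 2.4.4 to mm39 and counted with HTSeq 2.0.2 without strand. FastQC 0.11.9 and MultiQC served for quality control. The values used here are the raw counts that the authors deposited for 116873 transcripts. The table also holds the authors' own DESeq2 comparisons (fold changes, p-values), which were not used, and 36 other columns of per-sample values, which were not used either.

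Groups came from the labels. Counts were summed by gene symbol, and 137 entries without a symbol (0.0222% of reads) were kept as features of their own. A gene was tested where 2 or more libraries of the fit had 5 or more reads. Libraries were scaled by TMM and tested with the quasi-likelihood test of edgeR 4.0.16 (R 4.3.3), two-sided, with Benjamini-Hochberg adjustment over all genes of the fit. Each SE is the absolute log2 fold change divided by the square root of F. Fits within a fraction used its 6 libraries, the interaction 12 and the others 18. Replicate libraries differed by more than sampling noise (chi-square per degree of freedom 1.72 to 45.6) and were counted separately. Intervals are exact, and they and the floor of 3 reads over a group cover counting error only.

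The members and the lists of markers and partner genes were chosen with earlier results of these data known. Named in each comparison were the called subunits, the next by unadjusted p up to 8, and *Grin1*. Some genes are not reported here by name. Further names were chosen after their values were seen. Alternatives were DESeq2 1.42.0 and its size factors, TMM without the 10 most abundant genes, other filters, the adjusted p alone, the transcript of highest mean, a replicate block, other sets of libraries or covariates, and each library left out. The split of *Grin1* and the fits with a single WT library were added after seeing the data.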

Additional observations from a re-analysis of the deposited data

How the results depend on the processing

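The number of subunits called lower in KIN astrocytes was 8 of 25 tested, and it was 3 of 17 when each gene was represented by its transcript of highest mean. In microglia the count of 1 became 2 with no filter on low counts, and 0 to 5 when a library was left out: 5 without WT replicate 2, and 0 without WT replicate 1, KIN replicate 1 or KIN replicate 2. DESeq2 could give no count there, since it left all 18 without an adjusted p. Over all fractions the count of 8 of 27 became 4 of 21 with the transcript of highest mean, 0 without the fraction covariate and 5 to 9 with a library left out, the 5 without astrocyte KIN replicate 1 or 3. Between astrocytes and microglia the count of 16 of 27 became 9 of 12 with a mean of at least 10 counts and 10 of 21 with the transcript of highest mean. Between neurons and astrocytes 13 of 27 became 7 of 12 with a mean of at least 10 counts. Between neurons and microglia 7 of 27 became 3 of 27 with WT libraries only and 4 to 9 with a library left out, the 4 without neuronal WT replicate 2. The median log2 fold change of the subunits in astrocytes, -0.95, ranged from -1.14 to -0.89 with a library left out and was -0.68 with WT replicate 2 as the sole WT library. In microglia, -0.75 became -0.31 with a mean of at least 10 counts, -0.25 with the transcript of highest mean, -0.046 with WT replicate 2 as the sole WT library, and -1.08 to -0.30 with a library left out. In neurons, -0.32 became -0.88 with a mean of at least 10 counts and -0.57 to 0.022 with a library left out, the latter without WT replicate 3. Over all fractions, -0.67 became -0.89 with a mean of at least 10 counts. Directions turned in microglia with WT replicate 2 as the sole WT library for *Grin1* (0.66), *Gria1* (3.44), *Gabbr1* (0.32), *Grm4* (4.38), *Grm5* (0.88), *Grik2* (0.47), *Gabra2* (-0.16) and *Grik4* (-0.44). In astrocytes, with WT replicate 2 as the sole WT library, the direction also turned for *Gria4* (0.19) and *Grik2* (0.60). In neurons *Grin2b* ranged from -0.81 to 0.12 and *Grik2* from -0.80 to 0.73 with a library left out, both highest without WT replicate 3. The interaction of *Grin1* was 1.16 for the transcripts other than the most abundant one. Fits with a sole WT library rest on a library chosen after its values were seen, with no spread of its own. Their signs and sizes restate that library's values, and no calls are counted from them. The causes were not tested. Over all genes, DESeq2 called 401 in astrocytes against 1039 with edgeR, 48 against 165 in microglia (85.4% higher in KIN against 48.5%), 0 against 5 in neurons and 82 against 152 for the interaction. One fit of all 18 libraries moved the median of all genes in neurons by 0.19 and the share of higher calls to 20.0%, and that share in microglia to 37.9%.

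Libraries with the same replicate number in WT and KIN had deviations correlated at -0.06 to 0.05 and those in different fractions of a genotype at -0.04 to 0.21 (0.06, 0.21 and 0.10 for WT astrocytes and microglia), and not every library correlated best with its own number, so the numbers were not taken to pair the samples. With the replicate number as a block, the counts of subunits called remained 8, 1, 0, 8, 0, 16, 13 and 7, in the order astrocytes, microglia, neurons, all fractions, interaction and the 3 comparisons between fractions. Over all genes the block gave 1198 calls in astrocytes, 155 in microglia, 1 in neurons, 268 over all fractions and 266 for the interaction. The 38 subunits had 70 to 156 reads in a neuronal library, which limits what could be detected there.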
